A study of Mus musculus with 6 samples.

Results

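The genes described are 10 genes of the clathrin machinery, chosen by their symbols among the 34714 genes of a table of mouse kidney RNA: the coat subunits Cltc, Clta and Cltb, the adaptors Ap2a1, Ap2b1, Ap2m1, Picalm and Hip1, the scission enzyme Dnm2, and Gak, which guides uncoating. All 10 were in the table and all 10 passed the filter on low values, a mean of at least 1 FPKM over the libraries. The values are FPKM, which divide the fragments of a gene by its transcript length and by the mapped total. Levels of different genes are set side by side on that scale, within the limits of the length trends and shared exon bases described below. Whole kidney was taken from 8-week-old mice on normal chow, 3 samples labelled Hspa8 knockout and 3 labelled WT. The wild-type titles name C57, and the knockout titles name no strain, Cre or floxed allele. The growth protocol lists Hspa8flox/flox mice (C57BL/6J-Hspa8em1flox/Cya), Cdh16-Cre mice and C57BL/6J mice among the animals obtained. Cdh16-Cre acts in tubule epithelium, and where it drives the deletion other kidney cells keep Hspa8. The sources used here do not give sex, pooling of animals or whether each sample is a separate animal, and the p-values then measure sample-to-sample spread that may be technical. Strain, Cre and knockout cannot be told apart in this design.

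Clathrin forms a lattice of triskelia, each built of heavy chains (Cltc) with a light chain (Clta or Cltb) bound to each. The lattice shapes vesicles at the plasma membrane and at the trans-Golgi network, and in the proximal tubule it carries the uptake of filtered protein through megalin and cubilin. AP-2 ties the lattice to membrane lipids and cargo, dynamin cuts the vesicle neck, and a J-domain protein, cyclin G-associated kinase (Gak) in most tissues or auxilin (Dnajc6) chiefly in neurons, brings HSC70, the product of Hspa8, to the coat. HSC70 then uses ATP to pull the lattice apart. The comparison asks whether the transcripts of this machinery differ in kidneys in which the gene of the uncoating chaperone was targeted. Where 3 values are given for a group, they are replicates 1, 2 and 3 in that order.

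Promoter sequences are shown for Cltc and Gak, whose levels moved together across the libraries, and for Cltb, the member whose FPKM varied least. Each runs 5′ to 3′ on the strand of the gene, from 250 bases before to 50 bases after a start site (RefSeq, GRCm38.p6). For Gak and Cltb the last bases shown were not found in a GENCODE transcript of the gene, so their start sites may differ from those of GENCODE. Capitals mark matches, on both strands, to the CCAAT box, the GC box (GGGCGG), the heat shock element pair (GAANNTTC) or the cAMP response element (TGACGTCA).
Cltc, chr11:86757518-86757817, minus strand: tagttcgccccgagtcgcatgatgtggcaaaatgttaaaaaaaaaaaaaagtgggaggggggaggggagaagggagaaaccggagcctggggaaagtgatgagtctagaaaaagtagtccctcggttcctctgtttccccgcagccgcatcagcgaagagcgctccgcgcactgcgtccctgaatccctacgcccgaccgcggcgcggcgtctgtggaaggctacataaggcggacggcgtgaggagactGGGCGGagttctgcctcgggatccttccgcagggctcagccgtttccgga
Gak, chr5:108629728-108630027, minus strand: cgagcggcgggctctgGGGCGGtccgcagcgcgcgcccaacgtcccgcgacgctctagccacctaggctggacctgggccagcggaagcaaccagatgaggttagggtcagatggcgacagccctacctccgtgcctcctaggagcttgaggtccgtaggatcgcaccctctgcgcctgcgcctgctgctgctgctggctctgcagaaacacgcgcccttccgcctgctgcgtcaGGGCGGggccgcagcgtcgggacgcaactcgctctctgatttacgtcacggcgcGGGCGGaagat
Cltb, chr13:54611324-54611623, minus strand: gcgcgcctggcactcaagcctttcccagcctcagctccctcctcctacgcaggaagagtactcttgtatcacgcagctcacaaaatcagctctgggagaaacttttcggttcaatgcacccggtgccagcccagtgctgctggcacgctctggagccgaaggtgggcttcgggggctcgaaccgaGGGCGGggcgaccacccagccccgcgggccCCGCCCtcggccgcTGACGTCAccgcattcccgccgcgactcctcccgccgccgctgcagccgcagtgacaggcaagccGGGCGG
Of the 4 motifs, the GC box was in all of Cltc, Gak and Cltb, and Cltb also held the palindromic cAMP response element. Over 11 promoters of 9 of the genes, the GC box was found in 10, the CCAAT box in 4, the cAMP response element in 1 and the heat shock element pair in 1, an upstream start of Clta, where it abuts a GC box. Among all 32851 promoters of the same length these motifs were found in 35.7%, 37.4%, 1.79% and 7.86%. A match is a match of letters and says nothing of binding.

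Hspa8 (chromosome 9, 40800984 to 40810087 in GENCODE vM21, GRCm38) had 650, 699 and 781 FPKM in knockout kidneys, against 1058, 1092 and 1318 FPKM in wild-type kidneys. All knockout values lay below all wild-type values, and the knockout mean was 61.4% of the wild-type mean. The change (log2 fold change -0.70, standard error 0.122) did not pass over all genes (limma, Benjamini-Hochberg adjusted p = 0.866). The sources used here do not give the exons flanked by loxP, and in whole tissue fewer cells of a type and less RNA per cell cannot be told apart.

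Across the 12174 tested genes limma called 0 (0%) at an adjusted p under 0.05, and 629 (5.17%) had an unadjusted p under 0.05. Of the 10 clathrin genes 0 were called and 0 had an unadjusted p under 0.05. The kidney label held: Slc34a1 of proximal tubule, Umod of the thick limb and Aqp2 of collecting duct were at 1474 to 1942, 762 to 1272 and 37.2 to 114 FPKM over the 6 libraries. Levels also followed exon length (the union of the exons of a gene) to a different extent in each library. The deviation of a gene from its mean changed per doubling of exon length by 0.00977, -0.0526 and 0.0455 on the log2 scale in knockout kidneys, and by 0.0474, 0.00779 and -0.0579 in wild-type kidneys. Knockout replicate 2 and wild-type replicate 3 were thus low for genes of long exon length, and they were also the highest libraries on the first principal component (10.6 and 23.0, 47.5% of variance).

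Cltc (chromosome 11, 86694351 to 86757565), the heavy chain and the core of every triskelion, varied most among the members and showed no difference between the groups beyond that spread. It had 53.1, 41.5 and 55.8 FPKM in knockout kidneys, against 61.0, 46.6 and 36.1 FPKM in wild-type kidneys. The highest and the lowest library were both wild-type, so the wild-type values enclosed all knockout values. The means were 50.1 ± 7.60 FPKM in knockout and 47.9 ± 12.5 FPKM in wild-type kidney (SD, n = 3 each), and the log2 fold change was 0.08 with a 95% interval of -0.35 to 0.52 (limma adjusted p = 0.998). Without wild-type replicate 3 the log2 fold change was -0.10.

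The light chains were steadier than the heavy chain. Clta (chromosome 4, 44004452 to 44032846), the light chain with the highest level of all 10 genes here, had 101, 113 and 106 FPKM in knockout kidneys, against 113, 110 and 112 FPKM in wild-type kidneys. Knockout replicate 2 stood within the wild-type values and the other knockout libraries below them. Its log2 fold change was -0.06 with a 95% interval of -0.26 to 0.13 (limma adjusted p = 0.998). Cltb (chromosome 13, 54592401 to 54611344), the other light chain, had 40.8, 41.3 and 40.4 FPKM in knockout kidneys, against 40.8, 39.9 and 38.2 FPKM in wild-type kidneys. The groups overlapped, and the log2 fold change was 0.04 with a 95% interval of -0.13 to 0.22 (limma adjusted p = 0.998). The highest Cltb library was 1.08 times the lowest, and 1.86% of the 5523 tested genes with a mean of at least 10 FPKM had a ratio as small. The corresponding ratio for Cltc was 1.69, which 7.93% of those genes reached.

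**Figure D1:**
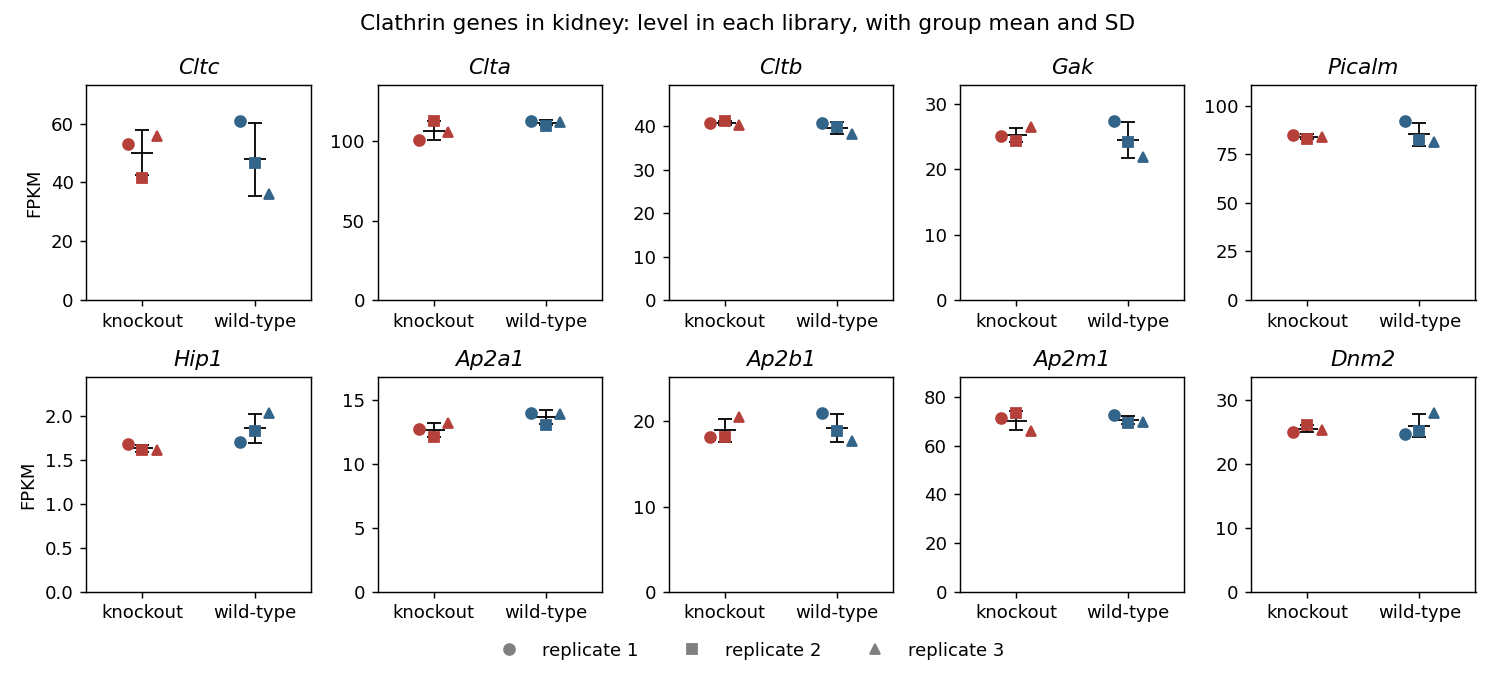
FPKM of each clathrin gene (vertical axes, starting at 0) in the 3 knockout and 3 wild-type libraries, with marker shapes for replicates and bars for the group mean and SD. The groups overlap for 9 of the 10 genes, Cltc has the widest spread (36.1 to 61.0 FPKM) and the 3 knockout values of Hip1 lie just below its wild-type values.

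Of the AP-2 adaptor, Ap2m1, Ap2b1 and Ap2a1 are members. Ap2m1 (chromosome 16, 20535478 to 20544909), the subunit that binds tyrosine-based sorting signals, had 71.3, 73.6 and 66.1 FPKM in knockout kidneys, against 72.5, 69.2 and 69.8 FPKM in wild-type kidneys. The knockout values enclosed the wild-type values, and the log2 fold change was -0.00369 (95% interval -0.19 to 0.19). Ap2b1 (chromosome 11, 83299024 to 83405035), the large subunit that grips clathrin, had 18.1, 18.2 and 20.5 FPKM in knockout kidneys, against 21.0, 18.9 and 17.7 FPKM in wild-type kidneys. Its wild-type values enclosed its knockout values, as for Cltc, and the log2 fold change was -0.02 (95% interval -0.24 to 0.20). Ap2a1 (chromosome 7, 44900373 to 44929496), a large subunit that binds membrane lipid and accessory proteins, had 12.7, 12.1 and 13.2 FPKM in knockout kidneys, against 14.0, 13.0 and 13.9 FPKM in wild-type kidneys. A single knockout library, replicate 3, stood above the lowest wild-type library. The log2 fold change was -0.10 with a 95% interval of -0.28 to 0.09. The adjusted p was 0.998 for each of the 3 subunits (limma). Ap2a1 shares 720 exon bases with Fuz and Dnm2 207 with Tmed1, each on the opposite strand, and Gak 199 with a gene model on its own strand. The sources used here do not say whether reads were assigned by strand, so these values may hold reads of the neighbour.

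Picalm and Hip1 bind clathrin, AP-2 and membrane lipid, and Picalm also sets vesicle size and carries SNARE proteins. Picalm (chromosome 7, 90130213 to 90213465) had 85.2, 82.7 and 84.1 FPKM in knockout kidneys, against 92.3, 82.6 and 81.4 FPKM in wild-type kidneys, with wild-type replicate 1 alone standing higher. Its log2 fold change was -0.02 with a 95% interval of -0.22 to 0.17. Hip1 (chromosome 5, 135406531 to 135545120), the member with the lowest level, had 1.68, 1.61 and 1.61 FPKM in knockout kidneys, against 1.71, 1.83 and 2.04 FPKM in wild-type kidneys. It was the 1 member of 10 whose knockout values all lay below its wild-type values, a pattern that 8.57% of all tested genes showed. No member had all knockout values above its wild-type values (2.01% of all tested genes). The Hip1 means were 1.63 ± 0.0405 FPKM in knockout and 1.86 ± 0.165 FPKM in wild-type kidney (SD, n = 3 each). Its log2 fold change was -0.12, with a 95% interval of -0.33 to 0.09 and a limma adjusted p of 0.998. At so low a level the log2(FPKM + 1) scale understates the change, and the p of the exact two-sided permutation test was 0.1, the lowest possible with 3 libraries a group. Hip1 was highest in wild-type replicate 3, as was the summed level of 8 endothelial markers, which was 88.5, 97.5 and 78.6 FPKM in knockout kidneys, against 100, 107 and 136 FPKM in wild-type kidneys. All 8 endothelial markers had a log2 fold change below 0, and none was at 0 in all libraries. Podocyte markers, of which 4 of 4 were below 0, summed to 55.0, 46.9 and 39.2 FPKM in knockout kidneys, against 50.9, 60.0 and 65.4 FPKM in wild-type kidneys. Adipocyte markers, of which 3 of 3 tested were below 0, summed to 65.6, 70.3 and 63.6 FPKM in knockout kidneys, against 75.6, 79.2 and 128 FPKM in wild-type kidneys. Without wild-type replicate 3 the log2 difference was 0.35 for Cfd, -0.15 for Fabp4 and -0.35 for Car3. Adipoq and Plin1 were under the filter, and their groups overlapped. Of all 12174 tested genes, 7896 were below 0. These sums too were highest in wild-type replicate 3. So were the sums for proximal tubule, immune, liver, neuron and skeletal muscle markers, and for Slc34a1, Umod and Aqp2 together. The sums for thick limb, distal tubule, principal cell, intercalated cell and red cell markers were highest in other libraries. Among the proximal tubule markers Kap alone was highest in wild-type replicate 3 (42280 FPKM), and Lrp2, Cubn and Slc22a6 were lowest there. Cd74 (135 FPKM) was the only tested immune marker highest there, and none of Slc34a1, Umod and Aqp2 was. A high sum in wild-type replicate 3 was thus not limited to endothelium, podocytes and adipocytes, but in some lists it rested on a single gene. The part of any of these cell types in the Hip1 values was not tested.

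Dnm2 (chromosome 9, 21424908 to 21507759), the widely expressed dynamin, had 25.0, 26.1 and 25.3 FPKM in knockout kidneys, against 24.7, 25.1 and 28.0 FPKM in wild-type kidneys. Wild-type replicate 3 alone stood higher, and the log2 fold change was -0.02 with a 95% interval of -0.22 to 0.17. Gak (chromosome 5, 108569411 to 108629755), a J-domain kinase that brings HSC70 to the coat, had 25.0, 24.3 and 26.4 FPKM in knockout kidneys, against 27.4, 24.2 and 21.8 FPKM in wild-type kidneys. Its wild-type values enclosed its knockout values too. The Gak means were 25.2 ± 1.08 FPKM in knockout and 24.5 ± 2.84 FPKM in wild-type kidney (SD, n = 3 each). The log2 fold change was 0.05, with a 95% interval of -0.18 to 0.28 and a limma adjusted p of 0.998.

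**Figure D2:**
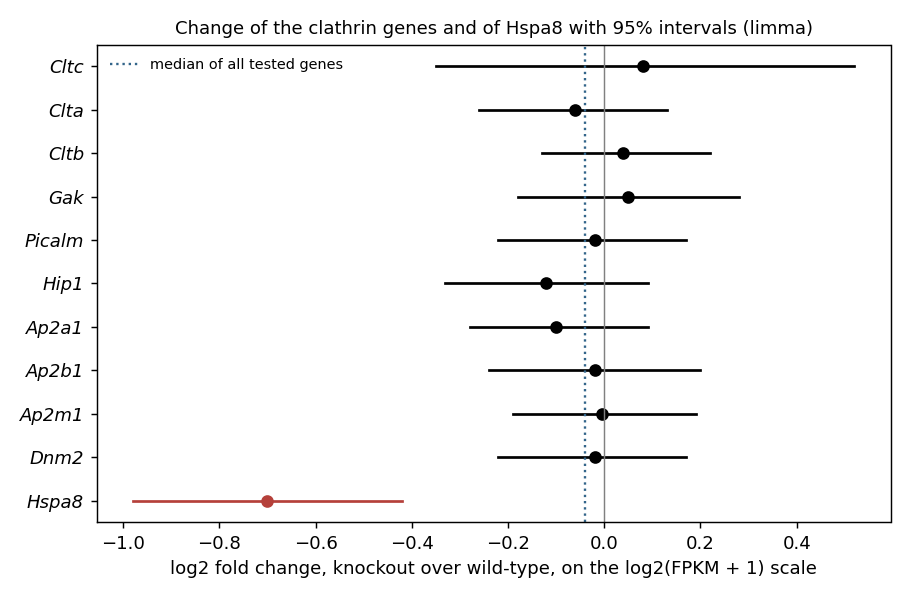
Log2 fold change of knockout over wild-type (horizontal axis, log2(FPKM + 1) scale) for the 10 clathrin genes and, in red, Hspa8, with 95% limma intervals as lines and the median of all tested genes (-0.04) dotted. The intervals of all 10 clathrin genes cross 0, and the widest is that of Cltc (-0.35 to 0.52).

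Over the list, the log2 fold change was above 0 for 3 of the 10 members and below 0 for 7 (median -0.020), beside 4278 of 12174 above 0 (35.1%) and a median of -0.04 over all tested genes. This split reversed to 7 above 0 when library sums or library medians were equalised or exon length was corrected for, and was 6 above 0 after quantile normalization. The median size of the change, regardless of sign, was 0.0449 for the members, 0.0774 for all tested genes and 0.0656 for those with a mean of at least 10 FPKM. For the 9 members other than Cltc the 95% intervals lay between -0.33 (Hip1) and 0.28 (Gak), each gene having its own interval as given above.

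In order of level over all 6 libraries the members were Clta (mean 109 FPKM), Picalm (84.7), Ap2m1 (70.4), Cltc (49.0), Cltb (40.2), Dnm2 (25.7), Gak (24.8), Ap2b1 (19.1), Ap2a1 (13.2) and Hip1 (1.75). The ranges of neighbours in this order overlapped only for Cltc with Cltb and for Dnm2 with Gak. The highest member mean was 62.4 times the lowest. Within a library, library scaling cancels in the ratio of 2 genes, and 6 such ratios were tested with an exact two-sided permutation test, whose smallest possible p is 0.1. The ratio of Clta to Cltb was 2.47, 2.73 and 2.63 in knockout kidneys, against 2.76, 2.75 and 2.92 in wild-type kidneys. All 3 knockout ratios lay below the wild-type ratios, by as little as the gap between 2.73 and 2.75, and the difference was -0.11 on the log2 scale (exact p = 0.1, 0.6 adjusted over the 6 ratios). With the length correction the difference was -0.10 and the exact p 0.3, and without knockout replicate 1 the difference was -0.07. The ratio of Cltc to the light chains together was 0.375, 0.269 and 0.380 in knockout kidneys, against 0.397, 0.311 and 0.241 in wild-type kidneys, and the groups overlapped (exact p = 0.7). Gak over Cltc was 0.471, 0.586 and 0.474 in knockout kidneys, against 0.450, 0.520 and 0.603 in wild-type kidneys, and the groups overlapped (exact p = 0.9). This ratio was highest where Cltc was lowest, as follows from dividing by Cltc, which varied more than Gak. The groups also overlapped for Ap2a1 over Ap2b1 (0.671 ± 0.0296 in knockout, 0.714 ± 0.0595 in wild-type; SD, n = 3 each; exact p = 0.4), for Ap2m1 over Ap2b1 (3.74 ± 0.450 in knockout, 3.69 ± 0.242 in wild-type; SD, n = 3 each; exact p = 0.8) and for Picalm over Hip1 (51.5 ± 0.732 in knockout, 46.3 ± 7.08 in wild-type; SD, n = 3 each; exact p = 0.4).

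**Figure D3:**
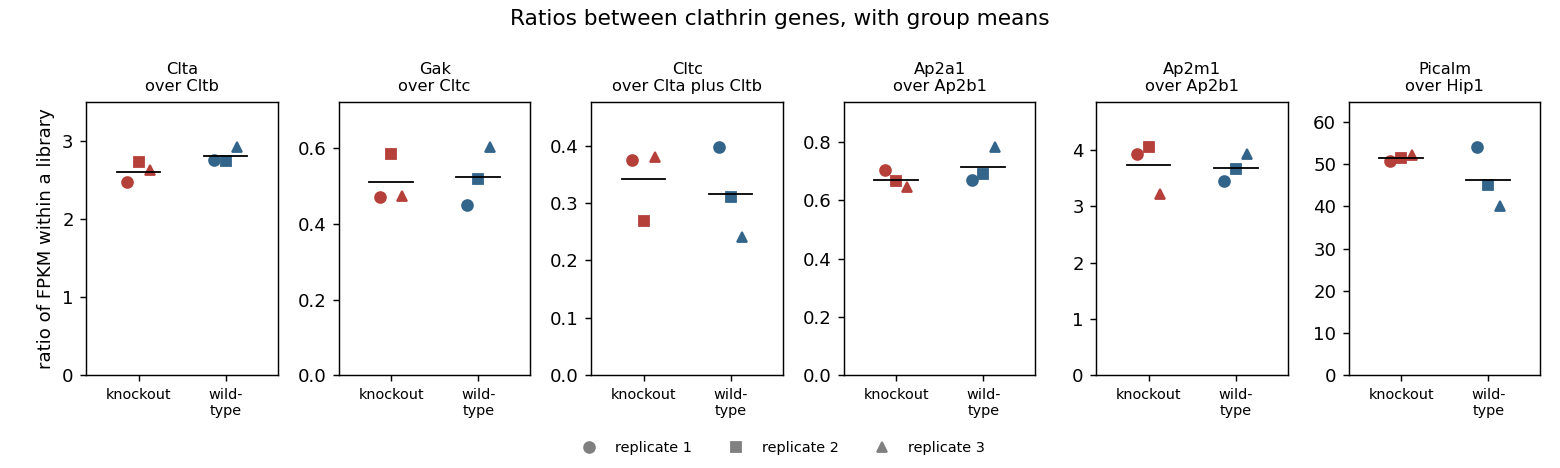
Ratios of FPKM between clathrin genes within each library (vertical axes, no unit, starting at 0), knockout left of wild-type, with marker shapes for replicates and lines at the group means. The groups are apart for Clta over Cltb (2.47 to 2.73 in knockout, 2.75 to 2.92 in wild-type) and overlap for the other 5 ratios.

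Cltc, Gak, Ap2b1 and Picalm all fell from replicate 1 to replicate 3 in wild-type kidneys. In knockout kidneys only Cltc and Gak shared an order, lowest in replicate 2 and highest in replicate 3. There Ap2b1 was lowest in replicate 1 (18.1 FPKM) and Picalm highest in it (85.2 FPKM). Over the 6 libraries the Pearson correlation of log2(FPKM + 1) was 0.955 for Cltc and Gak, 0.865 for Gak and Ap2b1 and 0.813 for Cltc and Ap2b1, and Picalm had 0.802 with Gak, 0.801 with Cltc and 0.730 with Ap2b1, as a description of libraries whose values share their scaling and their composition. Cltc and Dnm2 ran opposite to each other (-0.887), as did Cltb and Hip1 (-0.941), and the median over the 45 pairs of members was 0.141. The library slope on exon length described above ran with these values, with a correlation of 0.953 for Cltc, 0.876 for Gak, 0.856 for Ap2b1, 0.686 for Picalm and -0.823 for Dnm2, and 2.57% of tested genes reached the value of Cltc. The exon lengths of these 5 genes are 8499, 6439, 8755, 15732 and 5330 bases. Length itself did not sort the members, as Hip1 has 12961 exon bases and a correlation of -0.443. With the length trend subtracted from each library, the range of Cltc over the libraries was 0.623 on the log2 scale, against 0.741 without that correction, and its log2 fold change was 0.12, against 0.08. The same correction narrowed the range of Gak, Ap2b1, Picalm, Ap2a1 and Ap2m1 too, and widened that of Dnm2 (0.232, against 0.175 without it), Hip1 (0.312, against 0.221), Cltb (0.133, against 0.109) and Clta (0.171, against 0.162). With it Ap2m1 (0.0906) and Picalm (0.103) varied less than Cltb. RNA quality was not measured in the files, and its part in this pattern was not tested.

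**Figure D4:**
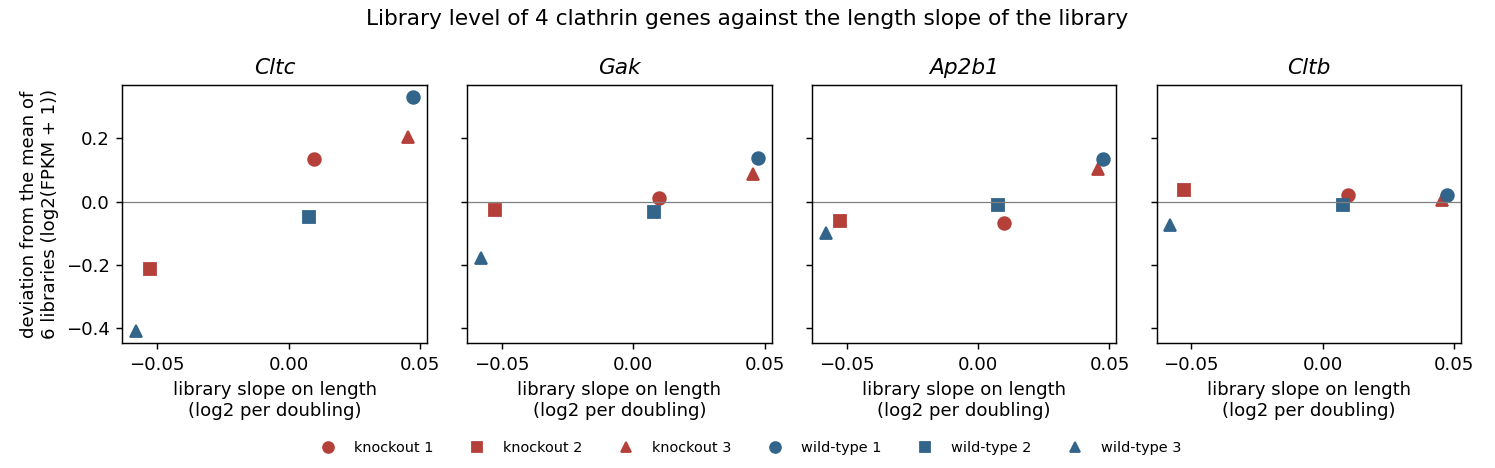
Deviation of Cltc, Gak, Ap2b1 and Cltb from their mean over the 6 libraries (vertical axis, log2(FPKM + 1)) against the library slope on exon length (horizontal axis, log2 per doubling of length), 1 point per library, red for knockout and blue for wild-type. Cltc is lowest in the libraries with negative slopes, wild-type replicate 3 (-0.0579) and knockout replicate 2 (-0.0526), while Cltb stays within a range of 0.109.

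Other genes of the pathway were counted from lists and 0 of 66 tested were called over all genes (limma), with 21 above 0 (31.8%) and a median of -0.04 on the log2 scale. Over all tested genes 35.1% were above 0 and the median was -0.04. Equalising library sums or medians moved that median to -0.000488 or 0.0109, so sign counts depend on scaling. How the counts of each list below change with it was not tested. An unadjusted p under 0.05 was reached by 5 of them, Hspa8 included, and by 4 of the 65 others, beside the 5.17% of all tested genes. The remaining AP-2 subunits gave 1 above 0 and 1 below: Ap2a2, the second alpha subunit, had 42.3, 37.5 and 44.2 FPKM in knockout kidneys, against 48.2, 40.7 and 34.2 FPKM in wild-type kidneys, following the library order of Cltc in wild-type, and Ap2s1, the small subunit, had a log2 fold change of -0.17. Initiation and accessory genes had 1 of 14 tested above 0 and a median of -0.07. Epn2, an epsin that bends membrane and binds ubiquitinated cargo, had 4.69, 5.04 and 4.65 FPKM in knockout kidneys, against 6.19, 5.64 and 6.00 FPKM in wild-type kidneys. Its groups did not overlap, and the change (log2 fold change -0.26, standard error 0.0817) did not pass over all genes (limma adjusted p = 0.914). Itsn2, a scaffold of early coats, had a log2 fold change of -0.13.

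Cargo adaptors had 1 of 8 above 0 and a median of -0.06. Numb, an adaptor of Notch and integrins, had a log2 fold change of -0.18 and Arrb2, the beta-arrestin that brings G protein-coupled receptors to coats, -0.22. Dab2, the adaptor of megalin, had 151, 111 and 128 FPKM in knockout kidneys, against 139, 136 and 111 FPKM in wild-type kidneys, and its groups overlapped. Scission genes had 3 of 7 tested above 0 and a median of -0.02, with Sh3gl1, an endophilin, at 10.9 ± 0.931 FPKM in knockout and 13.2 ± 1.27 FPKM in wild-type kidney (SD, n = 3 each) and Pacsin2 at a log2 fold change of 0.15. The neuronal Dnm1, Amph and Snap91 stayed under the filter with means of 0.414, 0.0847 and 0.115 FPKM in knockout and 0.624, 0.0867 and 0.0837 FPKM in wild-type kidney. Dnajc6, also chiefly neuronal, passed the filter with a mean of 5.43 FPKM over the 6 libraries. Of the 5 neuronal markers Syp alone passed it, at 2.10 ± 0.329 FPKM in knockout and 2.50 ± 0.426 FPKM in wild-type kidney (SD, n = 3 each), while Snap25 was listed at 0 in all 6 libraries.

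Among uncoating genes 5 of 9 tested were above 0 and the median was 0.01. Dnajc6, auxilin, had 6.25, 4.66 and 6.95 FPKM in knockout kidneys, against 5.41, 5.62 and 3.68 FPKM in wild-type kidneys, so that the groups overlapped (log2 fold change 0.24, limma adjusted p = 0.998). Synj1, Ocrl and Inpp5b, phosphatases that strip the lipid holding adaptors to the vesicle, had log2 fold changes of 0.07, 0.03 and 0.08, and Synj2 was under the filter. Hsph1 and Hspa4, HSP110 exchange factors that free HSC70 of ADP, had log2 fold changes of -0.70 and 0.01. Hsph1 had 30.2, 36.9 and 50.3 FPKM in knockout kidneys, against 58.5, 50.0 and 85.1 FPKM in wild-type kidneys, with knockout replicate 3 above the lowest wild-type library (limma adjusted p = 0.914). Hspa1a and Hspa1b, near-identical inducible HSP70 genes that can share reads, had log2 fold changes of -1.13 (standard error 0.924) and -1.23 (standard error 0.926), with a limma adjusted p of 0.998 each. Hspa1a had 3.15, 36.6 and 27.8 FPKM in knockout kidneys, against 17.6, 20.8 and 115 FPKM in wild-type kidneys, so the groups overlapped, with knockout replicate 1 far below and wild-type replicate 3 far above the rest. Without knockout replicate 1 the log2 difference was -0.13 for Hspa1a and -0.19 for Hspa1b, and without wild-type replicate 3 it was -0.29 and -0.43.

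**Figure D5:**
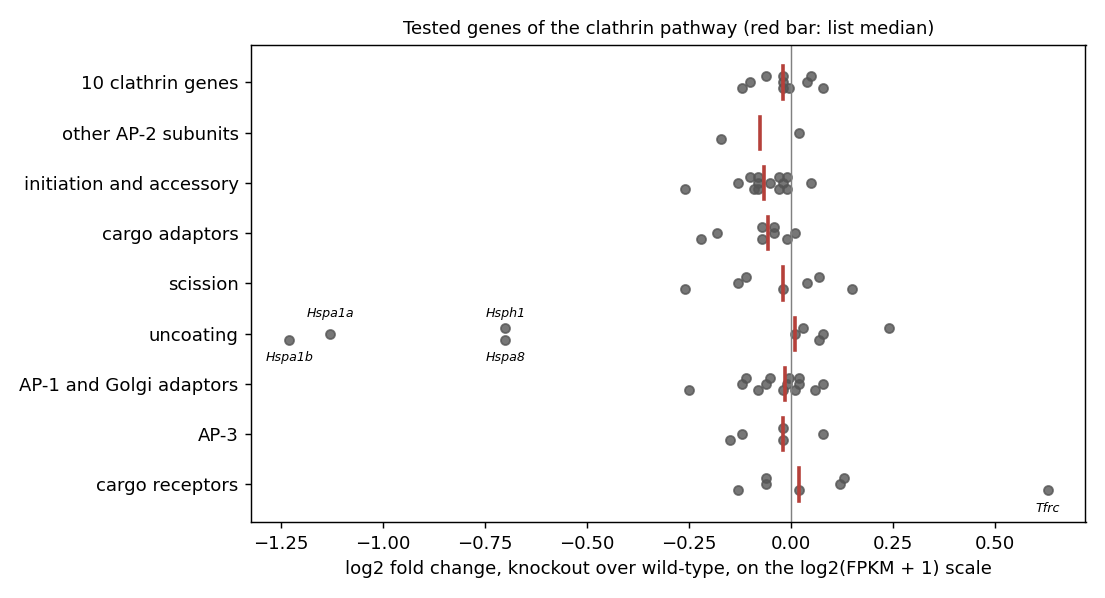
Log2 fold change of knockout over wild-type (horizontal axis, log2(FPKM + 1) scale) for each tested gene of the clathrin pathway, 1 row per list, with list medians as red bars. The 10 clathrin genes lie between -0.12 and 0.08, and the genes farthest from 0 are chaperones of the uncoating list and the cargo receptor Tfrc (0.63).

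Adaptors of the trans-Golgi network (AP-1, GGA proteins and partners) had 5 of 14 above 0 and a median of -0.01, with Gga3 at -0.25 and Ap1m1 at -0.11. AP-3, which sorts to lysosomes, had 1 of 5 above 0, with Ap3d1 at -0.15 and Ap3s1 at -0.12. The cargo receptors that enter through these coats had 4 of 7 above 0 and a median of 0.02. Tfrc, the transferrin receptor, had 23.1, 20.6 and 26.5 FPKM in knockout kidneys, against 18.6, 15.6 and 11.0 FPKM in wild-type kidneys, which makes 0.63 on the log2 scale (standard error 0.178). All knockout values lay above all wild-type values, and the change did not pass over all genes (limma adjusted p = 0.866). Red cell precursors also express Tfrc, and the summed level of 6 red cell markers was 420, 77.6 and 553 FPKM in knockout kidneys, against 52.1, 58.6 and 59.8 FPKM in wild-type kidneys. All 5 tested red cell markers were above 0, none of the 6 was at 0 in all libraries, and their part in the Tfrc values was not tested. Megalin (Lrp2) had 163, 111 and 181 FPKM in knockout kidneys, against 176, 142 and 102 FPKM in wild-type kidneys, and cubilin (Cubn) 38.6 ± 4.87 FPKM in knockout and 38.2 ± 6.90 FPKM in wild-type kidney (SD, n = 3 each). Both followed the library length slope as Cltc did, with correlations of 0.980 and 0.986. Amn, the membrane anchor of cubilin, had a log2 fold change of -0.13, and Igf2r, Egfr and Insr had 0.13, -0.06 and -0.06.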

How the data were processed

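RNA of 6 mouse kidney samples was analysed, 3 labelled Hspa8 knockout and 3 labelled WT. Per the labels' protocols, total RNA came from a column kit and libraries from a SMARTer mRNA kit. Values are FPKM, in a single table that the authors deposited. The submitters' processing notes name GRCm38 and mm10; the sources used here do not give aligner, quantifier, annotation or strandedness. Knockout columns, headed A8, were matched to knockout titles by number. No column of values was left over (0), and no gene had equal values above 0 in any pair of libraries.

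FPKM hold no read totals: among genes under 0.1 FPKM in a pair of libraries, no ratio (bins of 0.005, log2) held over 0.762% of them. Depth is therefore unknown and no counting interval is given.

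The test was limma 3.58.1 on log2(FPKM + 1) (R 4.3.3; model term, group) with a trended empirical Bayes variance and two-sided p, Benjamini-Hochberg over 12174 genes with a mean of at least 1 FPKM. Fold changes are on that scale. Ratios and single genes used exact permutation tests (scipy 1.17.1); figures were drawn with matplotlib 3.10.9. The fit was checked on simulated data. Coordinates and exon lengths (union of exons) are from GENCODE vM21; promoters are from RefSeq, used here for 9 members. Length was known for 96.6% of tested genes. The members, the gene lists and the naming rule (all members, uncoating and cargo receptor genes, otherwise the genes with the smallest p of a list, 2 each) were chosen with earlier results of these data known. Dab2, Dnm1, Amph, Snap91 and marker genes were named outside the rule. Some listed genes and overlaps are not reported here.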

Additional observations from a re-analysis of the deposited data

How the results depend on the processing

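Under 16 alternatives to the processing, 0 of the 10 clathrin genes were called in any of them (limma), and Clta, Cltb, Ap2a1, Hip1 (15 alternatives, as it is not tested at a mean of at least 5 FPKM) and Hspa8 kept their direction. The number of members above 0 was 7 with library sums equalised, 7 with library medians equalised, 6 with quantile normalization and 7 with the length correction, which was chosen after the data were seen. Equalised sums gave log2 fold changes of 0.02 for Picalm, 0.03 for Ap2b1, 0.04 for Ap2m1 and 0.02 for Dnm2. Equalised medians gave 0.03 for Picalm, 0.03 for Ap2b1, 0.05 for Ap2m1 and 0.03 for Dnm2, and quantile normalization 0.02 for Ap2b1, 0.01 for Ap2m1 and 0.01 for Dnm2. The length correction gave 0.02 for Picalm, 0.02 for Ap2b1, 0.04 for Ap2m1 and 0.02 for Dnm2. These scalings moved the median of all genes from -0.0399 to between -0.000488 and 0.0109. Without knockout replicate 2 and wild-type replicate 3 together, Gak had -0.00425 and Dnm2 0.01, and 5 genes, all globin genes, were called higher.

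Leaving out each replicate in turn gave 2 to 6 members above 0, 0 to 5 genes called higher (5, the globin genes, without knockout replicate 2) and log2 fold changes of -0.07 to 0.05 for Ap2b1, -0.04 to 0.04 for Ap2m1, -0.06 to 0.03 for Picalm, -0.10 to 0.27 for Cltc, -0.03 to 0.13 for Gak and -0.06 to 0.03 for Dnm2. Cltc was at -0.10 without wild-type replicate 3 and at 0.27 without wild-type replicate 1. The log2 differences of the ratios ran from -0.14 to 0.07 for Gak over Cltc, from -0.06 to 0.30 for Cltc over the light chains and from -0.05 to 0.12 for Ap2m1 over Ap2b1. The cause of these changes of sign was not tested.

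The sources used here do not say whether the replicate numbers pair the samples. Deviations of same-numbered libraries from their group means correlated at 0.307, -0.215 and -0.321, and those of knockout replicate 2 and wild-type replicate 3 at 0.55. Such correlations cannot decide it, as the libraries also differ in their length slope. With the replicate block the median of the members was -0.020, Hspa8 had an adjusted p of 0.759, and Clta over Cltb had an exact p of 0.25, the smallest that 3 pairs allow. FPKM hold no depth, which limits low genes such as Hip1 most.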
